A study of Mus musculus with 6 samples.

Results

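In Ba/F3 cells, 992 of the 12615 transcribed rows in a table of differential expression carried no Ensembl gene identifier, and these rows are described here by position, length, level and response. They were chosen by that missing identifier alone, so neither their level nor their ratio between the groups entered the choice. They covered 874 distinct loci. Ba/F3 is a mouse pro-B cell line that depends on the cytokine IL-3 for growth. All 6 samples carried the pMSCV-IRES-GFP retroviral vector and were grown with 1 ng/ml IL-3; 3 replicates expressed wild-type human calreticulin (hCALR) and 3 expressed hCALR-del52, the type 1 mutant. Calreticulin is a calcium-binding chaperone of the endoplasmic reticulum, and the del52 frameshift gives it an altered C-terminus that is found in myeloproliferative neoplasms.

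Loci outside an annotation can be long non-coding RNAs, which are often spliced, low in level and specific to a cell type. They can also be processed pseudogenes, copies of a messenger RNA put back into the genome, or unannotated ends and introns of known genes. RNAs that start beside a gene and run away from it are common at mammalian promoters. Short stretches that resemble an abundant messenger RNA can also collect reads of that messenger RNA, since such reads align to both places.

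The promoters of 5 long non-coding genes from RefSeq are printed first, because each annotated start lay within 100 bases of the matching end of a locus that changed between the groups. Each runs from 250 bases before to 50 bases after the start in GRCm38.p6, 5′ to 3′ on the strand of the gene. Gm46154 lies at chr1:120435691-120435990 on the minus strand, and Gm33756 at chr19:59389211-59389510 on the plus strand. Gm35837 lies at chr10:77225337-77225636 on the plus strand. Gm35189 lies at chr12:77053180-77053479 on the minus strand, and Gm30431 at chr1:95667451-95667750 on the plus strand. Capitals mark TTCNNNGAA, the core that STAT factors bind, or AGATAA, a form of the GATA site. STAT5 acts below the IL-3 receptor, and GATA1 drives erythroid genes. Both strands were searched, and the 2 motifs do not overlap in these windows.
Gm46154: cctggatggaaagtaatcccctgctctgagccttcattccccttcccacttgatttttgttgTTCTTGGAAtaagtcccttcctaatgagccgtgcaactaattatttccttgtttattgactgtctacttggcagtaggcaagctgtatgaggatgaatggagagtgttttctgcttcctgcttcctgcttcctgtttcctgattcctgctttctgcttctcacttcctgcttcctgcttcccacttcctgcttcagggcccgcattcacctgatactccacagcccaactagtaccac
Gm33756: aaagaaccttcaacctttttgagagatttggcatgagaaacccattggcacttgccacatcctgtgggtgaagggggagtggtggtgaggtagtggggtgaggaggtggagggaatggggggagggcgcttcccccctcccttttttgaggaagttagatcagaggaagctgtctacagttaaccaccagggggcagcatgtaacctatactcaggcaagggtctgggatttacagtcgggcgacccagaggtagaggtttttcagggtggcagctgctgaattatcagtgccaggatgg
Gm35837: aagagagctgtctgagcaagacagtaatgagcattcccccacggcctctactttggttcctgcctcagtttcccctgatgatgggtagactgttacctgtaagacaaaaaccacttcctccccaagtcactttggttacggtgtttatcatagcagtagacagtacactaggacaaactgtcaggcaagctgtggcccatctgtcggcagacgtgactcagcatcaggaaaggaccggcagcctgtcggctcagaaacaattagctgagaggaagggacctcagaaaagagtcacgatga
Gm35189: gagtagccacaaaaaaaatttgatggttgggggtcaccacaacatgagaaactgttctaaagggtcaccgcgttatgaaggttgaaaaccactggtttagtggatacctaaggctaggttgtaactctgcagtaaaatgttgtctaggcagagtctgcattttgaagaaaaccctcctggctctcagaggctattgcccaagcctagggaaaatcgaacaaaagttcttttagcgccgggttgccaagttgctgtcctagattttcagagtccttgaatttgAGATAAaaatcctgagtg
Gm30431: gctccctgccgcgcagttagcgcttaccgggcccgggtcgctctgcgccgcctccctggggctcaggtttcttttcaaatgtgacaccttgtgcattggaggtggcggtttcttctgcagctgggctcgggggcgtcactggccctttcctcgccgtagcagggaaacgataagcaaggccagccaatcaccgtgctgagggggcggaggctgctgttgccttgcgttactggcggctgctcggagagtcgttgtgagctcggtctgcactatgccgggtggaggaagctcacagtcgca
The STAT core occurred in 8.30% and the GATA form in 11.2% of 32851 mouse promoters of the same length. Gm46154 held 1 STAT core and Gm35189 held 1 GATA form, while neither was found in the windows of Gm33756, Gm35837 and Gm30431. The Gm30431 window held 23 CpG dinucleotides and was 63.3% G and C, beside medians of 7 and 52.7% over all promoters. It also covers the upstream end of the neighbouring row of St8sia4, 58 bases from the locus, so these values do not belong to Gm30431 alone.

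A second set shows loci that lie inside a processed pseudogene. These 3 were chosen for their high levels from the loci whose whole stretch aligned without a gap to the coding sequence of a protein-coding gene; others met that condition. Capitals mark the bases that differ from it. Each is read 5′ to 3′ on the strand of the pseudogene in GRCm38. Gm4972, at chr7:105412892-105413015 on the minus strand, matched Prrc2c over 124 bases with 1 mismatch. Gm7389, at chr8:3995088-3995252 on the plus strand, matched Xpot, which exports transfer RNA from the nucleus, over 165 bases with 2 mismatches. Gm8130, at chr16:23050356-23050489 on the plus strand, matched Rps3, a protein of the small ribosomal subunit, over 134 bases with 5 mismatches.
Gm4972: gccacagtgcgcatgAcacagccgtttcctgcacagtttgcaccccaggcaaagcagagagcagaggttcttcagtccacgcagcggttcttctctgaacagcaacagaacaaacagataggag
Gm7389: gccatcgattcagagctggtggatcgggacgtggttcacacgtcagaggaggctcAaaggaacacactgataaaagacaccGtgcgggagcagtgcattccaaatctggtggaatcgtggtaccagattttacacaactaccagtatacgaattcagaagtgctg
Gm8130: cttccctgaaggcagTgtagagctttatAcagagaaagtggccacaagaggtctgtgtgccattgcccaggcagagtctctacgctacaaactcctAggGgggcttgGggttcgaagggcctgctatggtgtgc

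The measurements limit what follows. The table gives 1 FPKM value per group (fragments per kilobase of transcript, scaled to sequencing depth) and no value per replicate, so no spread between replicates could be computed and no test was refitted. The labels name no separate cultures or transductions for the replicates, so the p-values rest on a spread that can be technical. The deposited library depth is unknown. A row was called where the q-value in the authors' deposited table was under 0.05. Of the pro-B marker list, 1 of 12 genes had a row, Cd79b at 8.64 FPKM in hCALR and 5.09 in hCALR-del52, and Pax5 and Ebf1 had none. Rows existed for 4 of 6 erythroid markers, whose summed level was 131 and 729 FPKM. Of these, Hbb-b1 (4.33 and 422 FPKM) and Hba-a1 (55.4 and 222) were called, while Klf1 (61.8 and 77.4) and Epor (9.12 and 7.45) were not. The 6 of 7 granulocyte and macrophage markers with a row summed to 73.1 and 26.6 FPKM. Emr1 (34.9 and 2.20), S100a8, S100a9 and Ngp were called lower, Lyz2 (3.48 and 6.98) was called higher, and Mpo (3.60 and 6.93) was not called. Of 5 T cell markers Cd3g had a row, at 1.29 and 25.1 FPKM. The part of these differences in the results below was not tested. The mouse Calr row, which checks no transgene, stood at 1180 and 906 FPKM without a call.

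A deposited locus is a span that can hold several rows. A row stood alone at its span in 755 cases, and only there is the length that of the row. Another 117 rows shared 41 spans with each other, and 120 shared 78 spans with rows of Ensembl genes. None of the 992 rows had a strand.

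The rows without an Ensembl gene lay on all 19 autosomes and on X, with 991 of them there and 1 on an unplaced sequence. Chromosomes 5, 1 and 17 held most, with 79, 74 and 73 rows, and X held 9. Per 100 Ensembl rows, chromosome 12 had 14.7 and chromosome 15 had 14.6, while chromosome 2 had 4.17, chromosome 11 had 4.25 and X had 2.53. Called rows were found on 16 of these 20 chromosomes, and none on chromosomes 3, 8, 9 or X.

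**Figure D1:**
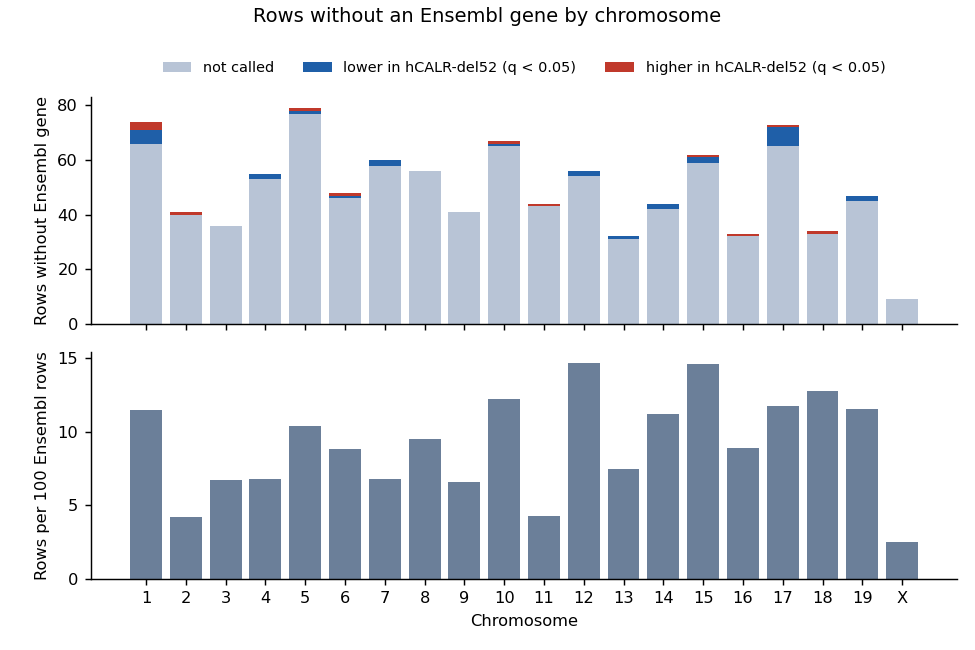
The upper bars count rows without an Ensembl gene on each chromosome, stacked by call in the authors' deposited table, and the lower bars give the same number per 100 Ensembl rows. Chromosomes 1 and 17 hold 8 called rows each, and chromosomes 12 and 15 stand highest against their Ensembl rows.

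The loci were short and weakly transcribed. The 755 rows alone at their locus had a median span of 993 bases, with quartiles of 356 and 4097 and extremes of 55 and 195107. Ensembl rows alone at their locus had a median span of 23407 bases. Both spans include introns. The median level of the 992 rows was 2.03 FPKM in hCALR and 1.87 in hCALR-del52, beside 16.5 and 16.3 for the 11623 Ensembl rows. A mean of both groups under 5 FPKM was found in 78.0% of the rows and in 20.9% of the Ensembl rows. No row of the table had a mean under 1.00 FPKM. A row near 0 in 1 group therefore had to be higher in the other to be listed: 25 rows without an Ensembl gene were under 0.5 FPKM in a group, and 11 of these were called.

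Level and length ran against each other at the short end. The 22 loci under 100 bases had medians of 853 FPKM in hCALR and 836 in hCALR-del52. Loci of 100 to 300 bases had medians of 4.41 and 6.03, and loci of 300 to 1000 bases had 1.46 and 1.38. Of 33 loci above a mean of 100 FPKM, 31 were shorter than 300 bases, and 17 overlapped a pseudogene in GENCODE M21 or RefSeq. FPKM divides by length, and the part of this step in the levels of very short spans was not tested.

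**Figure D2:**
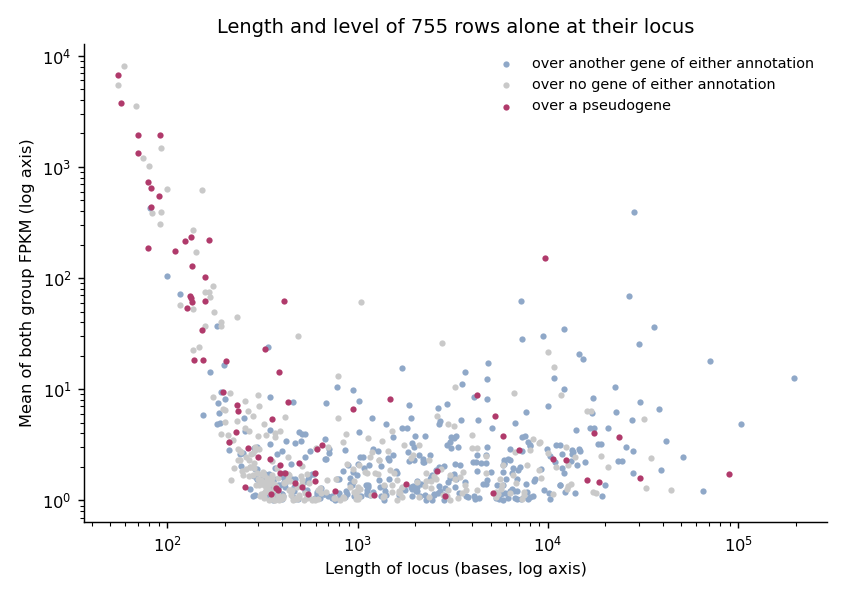
Each point is 1 of 755 rows alone at its locus, with span in bases on the horizontal and the mean of both group FPKM on the vertical axis, both logarithmic. Values above 100 FPKM gather below 300 bases, and many of these points lie over a pseudogene.

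The highest level of all was at chr13:12679082-12679140, a span of 59 bases over no annotated gene, with 5804 FPKM in hCALR and 10471 in hCALR-del52. It was not called, with q = 0.593 in the authors' deposited table. At chr1:143093263-143093317, over the RefSeq gene Gm5835, the values were 7655 and 5740 FPKM. At chr7:16719061-16719117, over the pseudogene Gm5586, they were 3760 and 3736. The other 7 of the 10 highest rows ranged from 998 to 6506 FPKM in hCALR and from 1298 to 4468 in hCALR-del52. The 10 were all under 100 bases long and lay 19292 to 2083783 bases from the nearest named row, and none was called.

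Within pseudogenes, 19 rows alone at their locus lay inside 1 exon. All 19 matched a protein-coding transcript, at 85.9% to 99.8% identity, 13 of them at 95% or more, and none was called. Identity covers the aligned part only, and 18 matched in the same sense. Gm17853 matched Anxa7 in the opposite sense, over 51 bases of its 211. Of 17 whose matching gene had a row, 7 had a higher FPKM than that gene in both groups. Gm4972 stood at 214 FPKM in each group and Prrc2c at 60.9 and 60.4. Gm7389 stood at 212 and 227 FPKM and Xpot at 39.5 and 39.2. Gm8130 went the other way, at 129 and 127 FPKM beside 1791 and 1868 for Rps3. These stretches are the ones printed above, and reads of the matching messenger RNA cannot be told apart from reads of the copy where no base differs. Their levels are uncertain for that reason.

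The 5 longest rows alone at their locus were lower in hCALR-del52, and none was called. They were chr12:79619363-79814469 over Rad51b, a recombination gene, at 16.1 and 9.08 FPKM, and chr12:12420782-12524498 over Gm34489 at 5.66 and 4.13. The next were chr3:154434198-154523500 over Gm2988 at 2.33 and 1.13 FPKM and chr5:4202506-4273686 over Gm40261 at 21.4 and 14.2. The last, chr9:62057248-62122677 over Glce, had 1.40 and 1.06 FPKM.

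Longer loci with a high level were fewer. Lockd, a non-coding RNA downstream of the cell cycle inhibitor Cdkn1b, was named after its values were seen, like the other named non-coding genes in this paragraph. Its locus at chr6:134928926-134957136 began 3412 bases beyond Cdkn1b and stood at 357 FPKM in hCALR and 427 in hCALR-del52, beside 53.2 and 55.7 for Cdkn1b. A locus over Gm32742 at chr9:51129671-51165689 had 43.8 and 29.0 FPKM. The main locus of Zmiz1os1, antisense to the transcriptional coactivator gene Zmiz1, had 36.4 and 33.6. Chaserr, which represses its neighbour Chd2, was covered by 6 rows at 1 span with 4.92 to 14.8 FPKM in hCALR and 4.69 to 12.5 in hCALR-del52. None of these was called.

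Other spans held many rows. The Syne1 span at chr10:5020203-5153311 held 11 rows without an Ensembl gene, with a median of 14.0 FPKM in hCALR and 16.5 in hCALR-del52. Of these rows 6 were lower and 5 higher in hCALR-del52, with log2 ratios from −0.97 to 0.85, and 0 were called. The span next to Syne1, chr10:5153862-5194880, held 7 rows, with medians of 13.9 and 19.4. There 1 row was lower and 6 were higher, and 0 were called. At chr1:190544584-190583990 all 9 rows were lower in hCALR-del52, with log2 ratios from −0.87 to −0.46, and none was called. Rows at 1 span can be parts of 1 transcript, so their shared direction is not 9 separate observations.

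The ratio between the groups was centred near 0. The log2 ratio of hCALR-del52 over hCALR, with 1 FPKM added to each, had a median of −0.03 and an SD across rows of 0.54. Ensembl rows had a median of −0.01 and an SD of 0.39. Within 0.5 of 0 lay 72.8% of the rows without an Ensembl gene and 91.7% of the Ensembl rows. The SD was also the larger one at matched FPKM, 0.47 beside 0.41 for a mean under 2 FPKM. It was 0.56 beside 0.40 at 5 to 20 FPKM and 0.60 beside 0.34 from 20 FPKM. Length was not matched, and its part in the wider spread was not tested. Among rows alone at their locus the SD was 0.45 under 100 bases, 0.71 at 100 to 300 and 0.52 at 300 to 1000. From 1000 to 10000 bases it was 0.48, and for longer loci 0.65.

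Of the 992 rows, 40 were called, or 4.03%, and over all 12615 rows 232 were called, or 1.84%. By direction, 12 were higher and 28 lower in hCALR-del52, beside 0.872% and 0.967% of all rows. None of the 120 rows that shared a span with an Ensembl row was called. Of the 40 calls, 37 stood alone and 3 shared with other unannotated rows. Calls at shared spans were few among Ensembl rows too. Of 192 called Ensembl rows 178 stood alone at their locus, while 7643 of all 11623 Ensembl rows did. The 40 calls differed at least 2-fold. Their median in the higher group was 3.61 FPKM, and 22 were under 1 FPKM in the lower group. Calls within 50 kb of each other form 31 regions, 12 higher and 19 lower. At a mean of 5 to 20 FPKM 7.41% of these rows and 1.56% of Ensembl rows were called, at 2 to 5 FPKM 13 of 260 rows and 3.11%, and under 2 FPKM 3.31% and 4.13%. At 20 FPKM or more 0 of 83 were called, while 42 of 5078 Ensembl rows were.

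**Figure D3:**
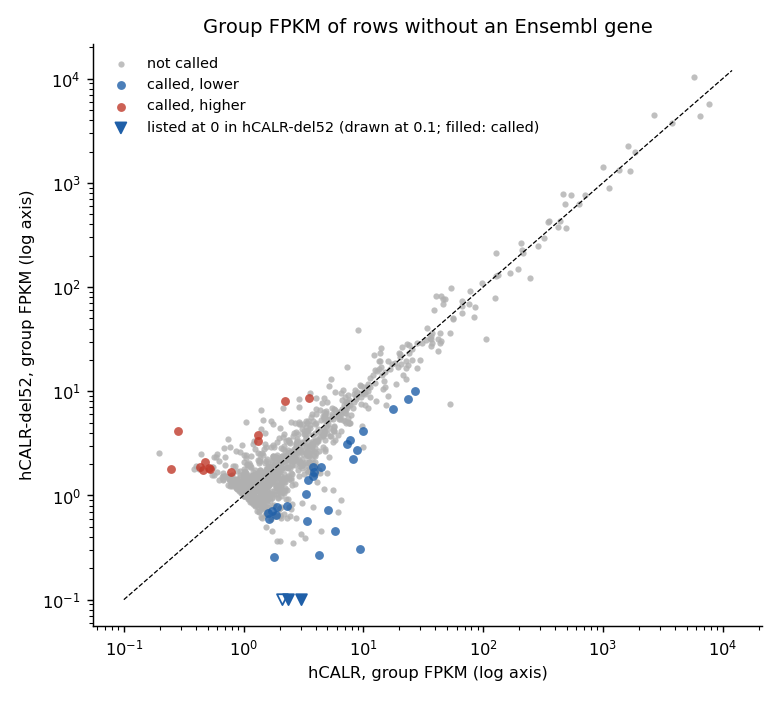
Each point is 1 of the 992 rows, with its group FPKM in hCALR on the horizontal and in hCALR-del52 on the vertical logarithmic axis, and triangles are rows listed at 0 in hCALR-del52, drawn at 0.1. Of the 40 called rows 28 lie below the diagonal and 12 above it, with 27.2 FPKM as their highest value.

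Among the 28 rows that fell, the largest ratio was at chr14:54694011-54695415, a span of 1405 bases over Gm29776, a gene both annotations list as protein-coding. It went from 9.35 FPKM in hCALR to 0.306 in hCALR-del52, 30.6-fold lower. The nearest named row, Acin1, which takes part in splicing and apoptosis, was 3268 bases away and stood at 413 and 146 FPKM without a call. Over the non-coding gene Gm35037 at chr7:3451302-3475826 the level went from 4.29 to 0.269 FPKM, 16.0-fold lower. Over 1700025J12Rik and 4933432K03Rik at chr7:121587262-121595317 it went from 5.76 to 0.455, 12.7-fold lower. The named neighbours Cacng7 and Usp31 of these loci were over 20 kb away and not called.

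Smaller decreases were found at other non-coding genes. Gm35189 at chr12:77037987-77053261, whose promoter holds the GATA form shown above, had the highest level of the called rows, 27.2 FPKM in hCALR and 10.1 in hCALR-del52. Gm33756 at chr19:59389471-59416959 went from 8.26 to 2.22 FPKM, 3.72-fold lower, 41730 bases from the homeobox gene Emx2 (2.11 and 0.438 FPKM, not called). Gm31568 at chr19:35148450-35158422 went from 10.0 to 4.18 FPKM. Around 1700025F24Rik at chr10:119405837-119415676 the level went from 5.05 to 0.729, 6.93-fold lower. AU022793 at chr15:39961346-39963592 went from 1.64 to 0.591 FPKM.

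Decreases also occurred where neither annotation lists a gene. The locus at chr13:95907437-95918506 went from 3.41 to 0.567 FPKM, 14882 bases from Iqgap2. Those at chr15:5245523-5248765, chr12:8461944-8472528 and chr5:3190822-3198843 fell 2.91-fold, 2.32-fold and 2.01-fold. At chr1:169603463-169603678, a span of 216 bases, the level was 3.04 FPKM in hCALR and the row was listed at 0 in hCALR-del52.

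Of the 12 rows that rose, 1700012I11Rik at chr15:67219597-67235266 had the largest ratio, from 0.285 to 4.15 FPKM, 14.6-fold higher. Gm46154 at chr1:120425522-120435769, whose promoter holds the STAT core shown above, went from 0.247 to 1.80 FPKM, 7.26-fold higher. The level it reached is close to the lowest listed levels, so that ratio rests on low values. Gm35837 at chr10:77225609-77248352 went from 2.23 to 8.08 FPKM, and the other 2 rows at that span were also higher without a call. Over Gm26686 and Gm29599 at chr1:128747015-128789317, 154721 bases from the chemokine receptor gene Cxcr4, 1 of 2 rows was called, at 3.53 and 8.57 FPKM. The 6 rows at the neighbouring span chr1:128670475-128720394 were all lower and not called, and the difference between both spans was not tested. Gm35456 at chr17:45721872-45726580 went from 1.32 to 3.79 FPKM, and Gm34679 at chr16:18168558-18174454 from 1.32 to 3.34.

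The remaining 6 rows that rose reached 1.70 to 2.08 FPKM in hCALR-del52, close to the lowest listed levels. They were Gm12315 beside the platelet glycoprotein gene Gp1ba, Gm41703, Gm9530, a locus over Gm33100, and loci near Vamp8 and Pbx3. Gm12315 began 99 bases from Gp1ba and went from 0.430 to 1.87 FPKM, while Gp1ba stood at 4.39 and 4.71 without a call.

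Calls gathered in a few places, and 13 of the 40 lay in 4 regions. The largest was chr17:91390530-91520179, a stretch of 129.65 kb with 8 rows, 7 of them called and all 8 lower in hCALR-del52. Neither annotation lists a gene under the called rows. The strongest row, chr17:91444719-91455484, had 23.4 FPKM in hCALR and 8.47 in hCALR-del52. The row at the start of the stretch, chr17:91390530-91393145, had 8.78 and 2.75 FPKM. The row at its end, chr17:91517934-91520179, had 1.91 and 0.767 FPKM. The 7 called rows fell 2.27-fold to 3.19-fold, and the row not called was 1.36-fold lower.

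No Ensembl row lay inside the stretch. Mettl4, the next named row after it, lay 3202510 bases away at 6.56 and 5.93 FPKM and was not called. Over chromosome 17 as a whole, Ensembl rows had a median log2 ratio of −0.15 beside −0.0044 elsewhere, and 445 of 623 were below 0. Unannotated rows there had a median of −0.10, and 8 of 73 were called, 7 of them in this stretch, beside 8 of the 623 Ensembl rows. Whether the shift of the chromosome had a part in the calls of the stretch was not tested. Neighbouring rows may belong to 1 transcript, so the 7 calls are not separate observations.

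**Figure D4:**
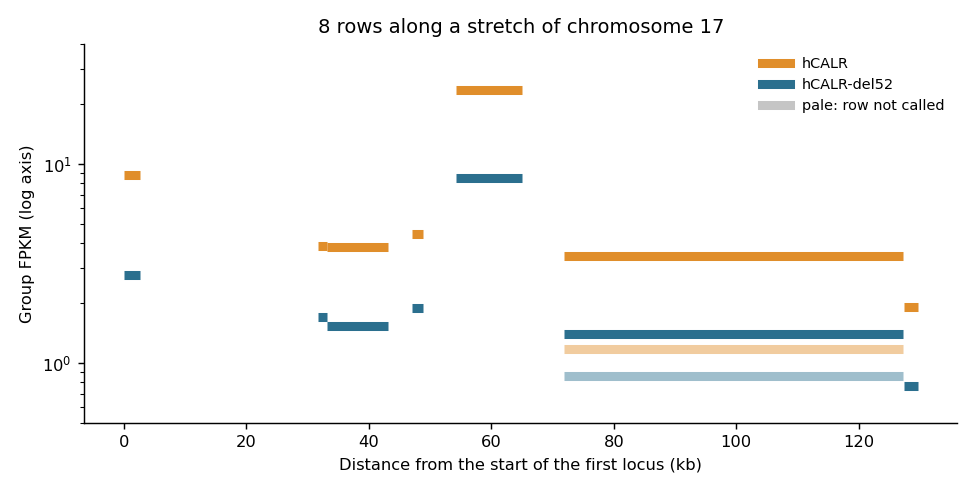
Bars give group FPKM (logarithmic axis) of the 8 rows along the stretch of chromosome 17, by distance in kb from the first locus, with hCALR in orange and hCALR-del52 in blue. The blue bar lies below the orange bar in all 8 rows, and the pale pair is the row that was not called.

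The other 3 regions held 2 calls each, all lower. Both rows over Gm30431 lay upstream of the row of St8sia4, which makes polysialic acid. The nearer also overlapped the RefSeq span of St8sia4 itself, so its reads cannot be assigned to the non-coding gene alone. The nearer, chr1:95667653-95672416, went from 17.9 to 6.72 FPKM, 2.66-fold lower, and the farther, chr1:95675167-95677366, went from 3.34 to 1.04, 3.20-fold lower. The first lay 58 bases from the St8sia4 row, which itself was called at 39.5 and 17.6 FPKM. Both rows over Gm46162 at chr1:151243435-151248349 fell, from 7.36 to 3.11 and from 7.67 to 3.42 FPKM. Both rows over Gm12610 at chr4:89366552-89370434 fell, from 1.73 to 0.716 and from 1.86 to 0.650 FPKM, 53020 bases or more from Cdkn2b, a cell cycle inhibitor.

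Unannotated rows at the T cell receptor loci were lower in hCALR-del52 too. A row within the alpha and delta locus, chr14:54094469-54096910, fell from 1.78 to 0.255 FPKM, and its neighbour Trdv4 was called at 16.8 and 3.50. In the beta locus, chr6:41220341-41220665 had 2.37 FPKM in hCALR and was listed at 0 in hCALR-del52, 399 bases from Trbv26, which was called at 3.59 and 0.160. A further beta row, chr6:41125018-41125445, had 4.46 and 0.451 FPKM and missed the threshold, with q = 0.0562 in the authors' deposited table. The 3 rows at the gamma locus, chr13:19209774-19352841, had 6.16 to 9.90 FPKM in hCALR and 0.691 to 2.92 in hCALR-del52, and none was called.

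The threshold fell among low values. In the authors' deposited table the 5 called rows nearest to it had q from 0.0241 to 0.0480, and the 5 rows just outside had q from 0.0509 to 0.0562. The last called row, chr4:89366552-89368320, had q = 0.0480 in the authors' deposited table, and the first not called, chr9:32547566-32553042, had q = 0.0509 there, 1.96-fold lower at 0.768 FPKM in hCALR-del52. Some large ratios were not called. The locus over 4930519L02Rik at chr3:143016929-143043509 had 106 FPKM in hCALR and 31.7 in hCALR-del52, 3.36-fold lower, with q = 0.0590 in the authors' deposited table. A span of 484 bases at chr2:28062847-28063330 had 52.7 and 7.49 FPKM with q = 0.890 there. A span of 146 bases at chr4:11254627-11254772, beside the cyclin gene Ccne2, had 9.06 and 38.4 FPKM with q = 0.300 there. It had the highest log2 ratio of the rows not called, 1.97, and the next 4 ranged from 1.36 to 1.67.

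Later annotations cover part of the loci. Of 755 rows alone at their locus, 262 overlapped an exon of GENCODE M21, 160 of them of a long non-coding gene, 51 of a pseudogene and 48 of a protein-coding gene. Another 41 lay in an intron only, and 452 overlapped no gene. RefSeq listed a gene under 399, of which 218 were long non-coding, and 300 lay over no gene of either annotation. Of all 755 rows alone at their locus 37 were called, or 4.90%, beside 1.84% of all rows. Of the Ensembl rows alone at their locus, 178 of 7643 were called, or 2.33%. Calls were made in 21 of the 218 RefSeq long non-coding loci, in 2 of the 121 over a RefSeq protein-coding gene, in 14 of the 300 over no gene, and in 0 of the 58 over a RefSeq pseudogene. These loci were also 2494, 1135, 538 and 361 bases long in the median, and calls were rare in short loci: 9 of 86 loci of 10000 bases or more were called, 25 of 288 from 1000 to 10000, 2 of 251 from 300 to 1000, 1 of 108 from 100 to 300 and 0 of 22 below.

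Many loci lay close to a named gene. The median distance from a row alone at its locus to the nearest named row was 8482 bases, and 211 of 755 lay within 1 kb. Where that neighbour also stood alone, 138 of 167 loci within 1 kb were upstream of it, or 82.6%, and 29 were downstream. Ensembl rows without a symbol, taken the same way, were upstream in 39 of 58 cases, or 67.2%. The difference between these shares was not tested. Examples are Fam120aos, Lppos and Ggnbp2os, which began 148, 51 and 60 bases from Fam120a, Lpp and Ggnbp2, each at 1.59 to 4.70 FPKM and none called. Since the rows have no strand, the direction of transcription away from or into the gene is not known.

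The ratio of a locus was related to that of its neighbour up to 100 kb, and little beyond. Across loci, Pearson's r of both log2 ratios was 0.46 under 1 kb (n = 211), 0.61 from 1 to 5 kb (n = 115), 0.39 from 5 to 20 kb (n = 145), 0.29 from 20 to 100 kb (n = 161) and 0.07 beyond (n = 123). Spearman's rho was 0.32, 0.38, 0.25, 0.36 and 0.11. Loci are not independent samples, and both rows share all libraries and may share reads. The level of a locus did not go with that of its neighbour, with r of −0.05 over all 755.

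**Figure D5:**
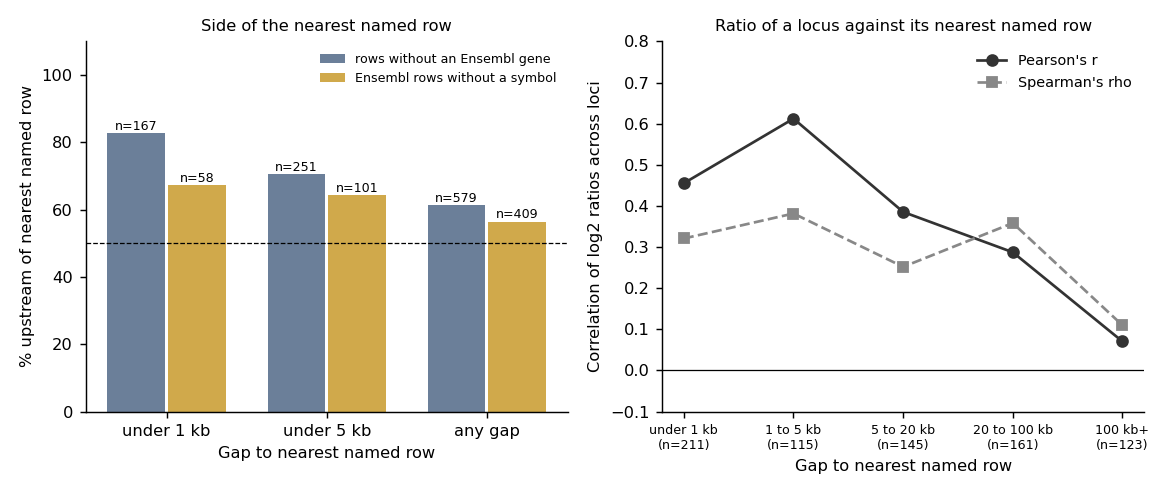
The left bars give the share of loci upstream of their nearest named row by gap, for rows without an Ensembl gene and for Ensembl rows without a symbol, with a dashed line at 50%. The right lines give the correlation across loci of both log2 ratios by gap, which is highest at 1 to 5 kb and lowest beyond 100 kb.

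Called loci were mostly far from the nearest named row, though not from every annotated gene. Of the 40, 27 lay over 20 kb from that row, among them the 7 calls of the chromosome 17 stretch. In 6 of the 40 the nearest named row was called too. Among rows alone at their locus, the median gap was 42633 bases for the 37 called and 8482 for all 755. Of these 37, 23 lay over a gene of GENCODE M21 or RefSeq, as did 455 of the 755. The sign of the ratio was the same as that of the neighbour in 32 of 40, beside 437 of 755 for rows alone at their locus. In 5 of the 6 pairs with both rows called the direction was the same. The exception was chr5:96879645-96891953, which rose from 0.516 to 1.84 FPKM, while Anxa3, a calcium-dependent phospholipid-binding protein gene 33676 bases away, fell from 4.11 to 0.724.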

How the data were processed

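Total RNA was sequenced in both groups after library preparation with the Illumina TruSeq v2 kit, per the labels' protocols. Per the submitters' processing notes, the tools were TopHat2 2.0.9, Bowtie2 2.1.0 and, for the comparison, Cuffdiff 2.1.1; the build was mm10. The authors' deposited table gives 1 FPKM value per group, the log2 fold change, the p-value and q-value, and a rank (a score, unused except to count rows). Ranks ran to 15521 and 2906 had no row, so removed rows are not analysed here. Per the file headers, low and highly variable genes were removed.

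The log2 ratios given here used a pseudocount of 1 FPKM, which understates the change of low rows. Starts count from 0 in the table and 1 was added: of 10969 rows with 1 identifier, 40.9% then had the GENCODE M21 gene start, and 1.07% before. Gaps run between locus ends. Annotations came from GENCODE M21 and RefSeq GRCm38.p6, and pseudogenes were aligned with blastn 2.17.0 (word size 7, E-value 1e-05). The code was tested on simulated data. Python 3.11.15, pandas 2.3.3 and scipy 1.17.1 were used.

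By rule, the rows described were all called rows, the 10 highest, the 5 longest, 5 at each end of the ratio, and 5 on each side of the threshold. Some are given by their range only, and further rows were named after their values were seen. The members, lists and rules were chosen with earlier results of these data known. Alternatives covered the call threshold, adjustment, level, length, overlap, pseudocount and neighbour rule.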

Additional observations from a re-analysis of the deposited data

How the results depend on the processing

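The count of 40 called loci was within 1.5 times under a q-value under 0.01 (29), a Benjamini-Hochberg adjustment repeated over all 12615 rows (32), and the limits on fold, level, length and overlap (28 to 40). The 12 higher calls were fewer, 7 at a q-value under 0.01, 8 with the repeated adjustment and 6 at 2 FPKM or more, where lower calls were 22, 24 and 22. Counting calls within 50 kb as 1 region gave 31, and leaving out the stretch of chromosome 17 gave 33; both were chosen after seeing the data. Bonferroni adjustment left 0 calls, because the smallest p-value in the authors' deposited table, 5e-05, cannot pass it over so many rows. At an unadjusted p under 0.05 there were 80 rows beside the 40. The same count was not made over all 12615 rows, so the 80 are no measure of further change in these loci. The repeated adjustment ended 8 calls, among them both at Gm12610 and 1 of 7 on chromosome 17, and left 1.36% of all rows called. The set of rows behind the deposited q-value is unknown here.

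The median log2 ratio of −0.032 stayed below 0: −0.045 with a pseudocount of 0.1, −0.062 at 2 FPKM or more, −0.054 at 300 bases or more, −0.020 without overlaps and −0.029 without chromosome 17. The median gap over all 992 rows was 6550 bases, 4989 to any Ensembl row and 10946 without overlapping rows. The median span over all 992 rows, with a shared span counted once per row, was 2386 bases, and 3245 at 2 FPKM or more. Over the 755 rows alone at their locus it was 993. The causes were not tested. The nearest row on the same strand was not run, since the rows carry no strand. No paired analysis was possible because replicates have no values of their own in the table, and for the same reason none could be left out.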
